A study of Mus musculus with 8 samples.

Results

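Osteoclasts and the giant cells of inflamed tissue form when single cells of the monocyte and macrophage lineage fuse. The genes described here are 10 rows of a table of 27133 genes, taken by symbol. They are the multipass fusion proteins Dcstamp and Ocstamp, the tetraspanins Cd9 and Cd81, the self-recognition pairs Sirpa with Cd47 and Cd200r1 with Cd200, the hyaluronan receptor Cd44 and the membrane protease Adam8. All 10 were found in the table and all 10 passed the filter on low counts. They were measured by poly(A) RNA-seq in 8 libraries of parietal bone, which forms much of the skull roof, from mouse pups of strain C57BL6J. In the isotype group (4 libraries, numbered 2 to 5 in their titles) pups received a control antibody. In the anti-CSF1R group (4 libraries, 7 to 10) they received an antibody that blocks CSF1R, the receptor for CSF1 and IL-34. Both antibodies were given transcranially at postnatal days 2, 4 and 6, and pups were perfused and their bone collected at postnatal day 9. The labels give no genotype other than the strain. They do not state whether the libraries of a group come from different pups, and the p-values therefore measure only the spread between libraries.

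Fusion of osteoclast precursors is driven by M-CSF and RANKL signalling. Among the genes these signals switch on are DC-STAMP and OC-STAMP, which span the membrane several times and are needed for multinucleation. The other members are thought to act when membranes meet: tetraspanins organise the surface, and SIRPα and CD200R bind partners, CD47 and CD200, that are carried by many cell types. In a bulk measurement of bone, RNA of Cd47, Cd200, Cd44, Cd9 and Cd81 can come from bone-forming cells, vessels and marrow as well as from precursors. Which cells it came from here was not tested.

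Depth was similar in all libraries, with 57.5 M to 69.1 M counts each, and a count of 3, taken as the floor of detection, equalled 0.0396 to 0.0573 CPM (counts scaled to a common library size of 1 M). Isotype 3 and 4 stood apart from the other 6 libraries. Across genes, their Spearman correlation with those 6 was 0.916 to 0.943, against 0.986 to 0.997 among the 6. Their deviations from the median library rose with the GC content of the transcript (Spearman rho across genes 0.650 and 0.640, against -0.372 to -0.0290 elsewhere). Members' results are therefore given also against isotype 2 and 5 alone, and after a library-wise correction for the GC content and length of transcripts (here called the GC correction). Bone was well represented: the 10 osteoblast markers summed to 173700 to 300900 CPM with isotype and 151300 to 183400 CPM with anti-CSF1R, and none was at 0 in any library. Skeletal muscle markers reached 27.3 and 66.8 CPM in isotype 2 and 3, against 4.18 to 5.34 CPM in the other libraries. Csf1r itself ran from 238 to 549 CPM over the isotype libraries and from 39.4 to 64.4 CPM over the treated ones. The antibody acts on the protein, so this RNA does not measure the blockade.

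Of the 10 members, 3 fell with anti-CSF1R: both fusion proteins and the receptor Sirpa. None rose (edgeR, 0 at an adjusted p under 0.05 and 0 at an unadjusted p under 0.05, and 0 with DESeq2 or limma-voom). Of all 17028 genes tested, 0.822% were called lower and 0.0235% higher. In the same 3 members every anti-CSF1R library lay below every isotype library, as was so for 8.34% of all genes tested. In 0 members did every anti-CSF1R library lie above, against 6.61% of all genes. The median log2 fold change of the 10 was -0.31, and that of all genes tested 0.031. The members were chosen with earlier results of these libraries known, so these counts describe them and do not test the list.

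**Figure D1:**
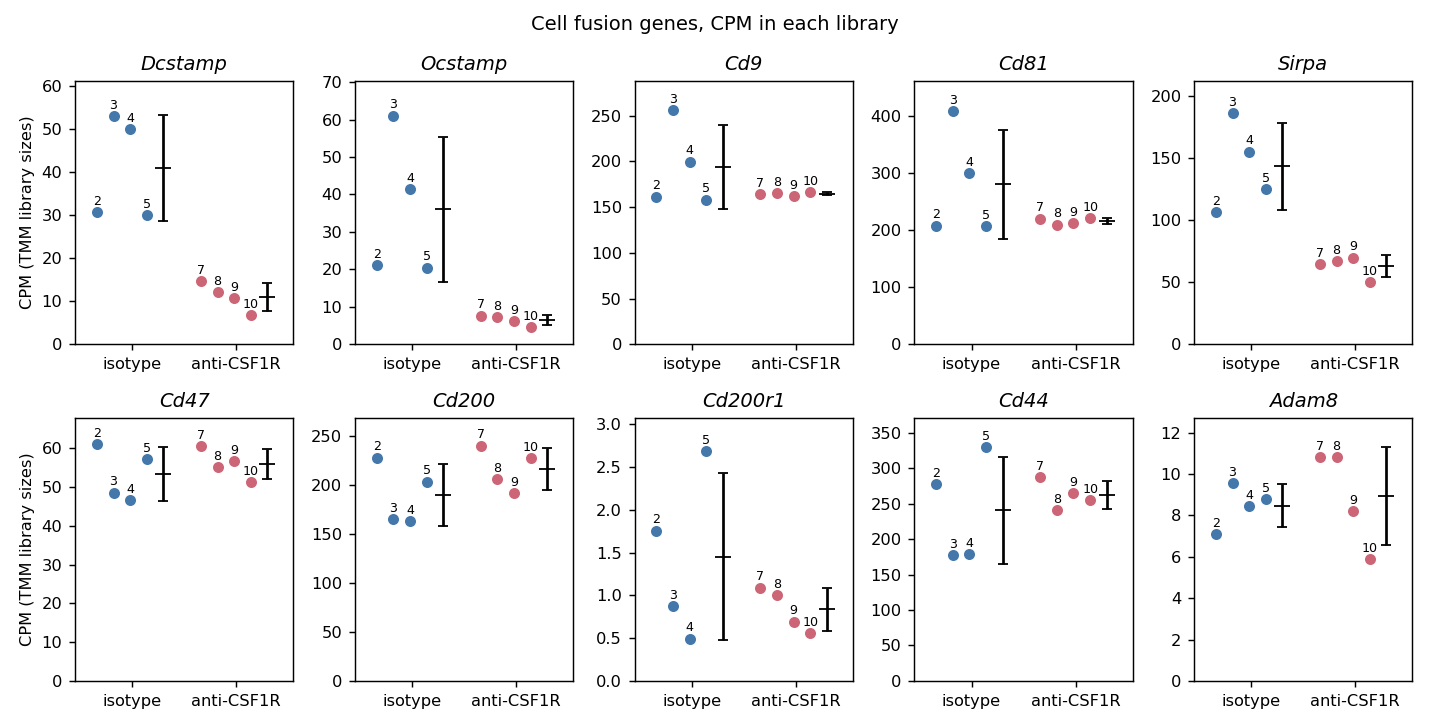
CPM of the 10 genes in each library (points, with the library number), with the mean ± SD of 4 libraries per group in black; each vertical axis starts at 0. Dcstamp, Ocstamp and Sirpa show no overlap between the groups, and in the other 7 genes the groups overlap.

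Dcstamp encodes the dendritic cell-specific transmembrane protein, a multipass receptor without which osteoclast precursors stay mononuclear. It gave 30.6, 53.0, 50.0 and 29.9 CPM in isotype 2 to 5, and 14.6, 12.1, 10.7 and 6.74 CPM in the treated libraries 7 to 10. The highest treated library, anti-CSF1R 7, was below the lowest isotype library, and isotype 3 and 4 were well above isotype 2 and 5. Dcstamp fell 3.71-fold, a log2 fold change of -1.89 ± 0.29 (SE, n = 4 per group), with an edgeR adjusted p of 0.0267. Against isotype 2 and 5 alone the fall was smaller and missed the threshold (-1.46, edgeR adjusted p = 0.0589), and after the GC correction it was -1.98 (edgeR adjusted p = 0.00716).

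Ocstamp, the osteoclast stimulatory transmembrane protein, is a structurally related protein that precursors also need to become multinucleate. Its CPM was 21.1, 61.1, 41.4 and 20.5 in isotype 2 to 5 and 7.65, 7.30, 6.10 and 4.59 in anti-CSF1R 7 to 10. As with Dcstamp, isotype 3 and 4 were the highest libraries, here with a wider gap, and anti-CSF1R 10 was the lowest. Ocstamp fell 5.61-fold, with a log2 fold change of -2.49 ± 0.38 and an edgeR adjusted p of 0.0267. That was the steepest fall of the 10 members. Against isotype 2 and 5 alone it was -1.69 (edgeR adjusted p = 0.00182), and after the GC correction -2.23 (edgeR adjusted p = 0.00357).

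The fusion proteins were also compared with each other inside each library, as log2 CPM of Dcstamp minus log2 CPM of Ocstamp, a difference that library size does not touch. It was 0.54, -0.20, 0.27 and 0.55 in isotype 2 to 5 and 0.93, 0.72, 0.80 and 0.55 in anti-CSF1R 7 to 10. The groups met but did not cross: isotype 5 and anti-CSF1R 10 had nearly the same value. The group difference of 0.46 gave an exact two-sided permutation p of 0.0286, the smallest that 70 assignments of the libraries allow, and 0.0571 adjusted over 4 such pairs. It was 0.21 against isotype 2 and 5 alone (exact permutation p = 0.200 over 15 assignments) and 0.21 after the GC correction (exact permutation p = 0.171). A steeper fall of Ocstamp than of Dcstamp was thus not established. Transcript GC content was 53.5% for Ocstamp and 47.4% for Dcstamp, higher than in 69.4% and 36.6% of the genes tested.

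The summed levels of osteoclast and macrophage markers fell alongside. The summed level of 14 osteoclast markers was 6262 to 14380 CPM with isotype and 2456 to 3297 CPM with anti-CSF1R, and that of 12 macrophage markers 571 to 1008 and 221 to 275 CPM. Most of the osteoclast sum came from Mmp9, Ctsk and Acp5, with isotype means of 3518, 2584 and 2407 CPM. Of the osteoclast markers 7 of 14 fell, and of the macrophage markers 8 of 12, with 0 called higher in either list (edgeR, adjusted over all genes). Mertk and Cd163 of the macrophage list had higher means in the treated group, 66.2 against 96.4 and 28.6 against 41.7 CPM. Neither was called (log2 fold change 0.54 each, edgeR adjusted p = 0.295 and 0.299). Both were lowest in isotype 3 and 4, and against isotype 2 and 5 alone their log2 fold changes were 0.082 and 0.061. Car2 of the osteoclast list had a log2 fold change of 0.016. The macrophage list includes Csf1r itself, which was its most abundant gene (isotype mean 361 CPM) and so weighs most in that sum. These lists too were chosen with earlier results known. In whole bone, fewer cells of a type and less RNA per cell cannot be told apart. Set against the mean log2 CPM of the 14 osteoclast markers in the same library, Dcstamp stood at -1.58 ± 0.32 (SD, n = 4) with isotype and -2.11 ± 0.24 with anti-CSF1R, and the groups overlapped. The Dcstamp difference was -0.53, and -0.25 against isotype 2 and 5 alone. Ocstamp stood at -1.87 ± 0.64 and -2.86 ± 0.11 on that scale, without overlap, a difference of -0.99 that was -0.46 against isotype 2 and 5 alone. Sirpa stood at 0.25 ± 0.23 and 0.44 ± 0.093, with overlap (difference 0.20, and 0.37 against isotype 2 and 5 alone). Against the mean log2 CPM of the 12 macrophage markers the picture differed. Dcstamp stood at 0.66 ± 0.32 with isotype and 0.67 ± 0.31 with anti-CSF1R, and Ocstamp at 0.37 ± 0.64 and -0.084 ± 0.27, both with overlap. The Dcstamp difference there was 0.0053, and 0.27 against isotype 2 and 5 alone. That of Ocstamp was -0.46, and 0.065 against isotype 2 and 5 alone. Sirpa stood at 2.49 ± 0.20 and 3.22 ± 0.17 on the macrophage scale, higher in every treated library than in any isotype library (difference 0.73, and 0.89 against isotype 2 and 5 alone). That was not particular to Sirpa. Cd9, Cd81, Cd47, Cd200, Cd44 and Adam8 were also higher there without overlap, with larger differences of 1.58 to 2.10. These relative levels were computed after the members' values had been seen and were not tested.

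Sirpa encodes SIRPα, an inhibitory receptor of macrophages, osteoclast precursors and neurons that signals through the phosphatases SHP-1 and SHP-2 when it binds CD47. It gave 107, 186, 155 and 125 CPM in isotype 2 to 5, and 64.7, 66.8, 69.8 and 50.0 CPM in the treated libraries 7 to 10. All 4 treated libraries were below isotype 2, the lowest control. Sirpa fell 2.28-fold (log2 fold change -1.19 ± 0.20, edgeR adjusted p = 0.0356). The call held against isotype 2 and 5 alone (-0.89, edgeR adjusted p = 0.0142) and after the GC correction (-0.98, edgeR adjusted p = 0.00345). Sirpa lies in a family of close paralogs, whose reads the counting may have split. Those listed, Sirpb1a, Sirpb1b and Sirpb1c, were scarce, with group means of 0.163 to 1.29 CPM, and did not pass (edgeR adjusted p = 0.278, 0.277 and 0.203). Unlike Sirpa they had log2 fold changes above 0 (0.88, 1.1 and 0.85). For Sirpb1a and Sirpb1c every treated library was above every isotype library.

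Cd47, the "do not eat me" ligand of SIRPα found on nearly all cells, stood at 61.0, 48.5, 46.5 and 57.3 CPM in isotype 2 to 5. In anti-CSF1R 7 to 10 it stood at 60.5, 55.2, 56.8 and 51.3 CPM, inside the isotype range in every library. Its log2 fold change was 0.069 ± 0.14 (edgeR adjusted p = 0.737). The sign turned with the libraries and the GC correction: -0.082 against isotype 2 and 5 alone and -0.61 after the GC correction (edgeR adjusted p = 0.672 and 0.170). At 42.2%, the GC content of the Cd47 transcript was higher than in only 12.5% of the genes tested, and isotype 3 and 4 gave its lowest values.

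Within each library, log2 CPM of Sirpa minus that of Cd47 was 0.81, 1.94, 1.74 and 1.13 in isotype 2 to 5. It was 0.097, 0.27, 0.30 and -0.036 in anti-CSF1R 7 to 10, below every isotype library. The group difference was -1.24 (exact permutation p = 0.0286, the smallest possible), and it missed the threshold once adjusted over 4 pairs (exact permutation adjusted p = 0.0571). Against isotype 2 and 5 alone the difference was -0.81, again without overlap (exact permutation p = 0.0667, the smallest that 15 assignments allow). After the GC correction it was -0.44 (exact permutation p = 0.114). The size of this shift therefore depended on how isotype 3 and 4 and base composition were handled.

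**Figure D2:**
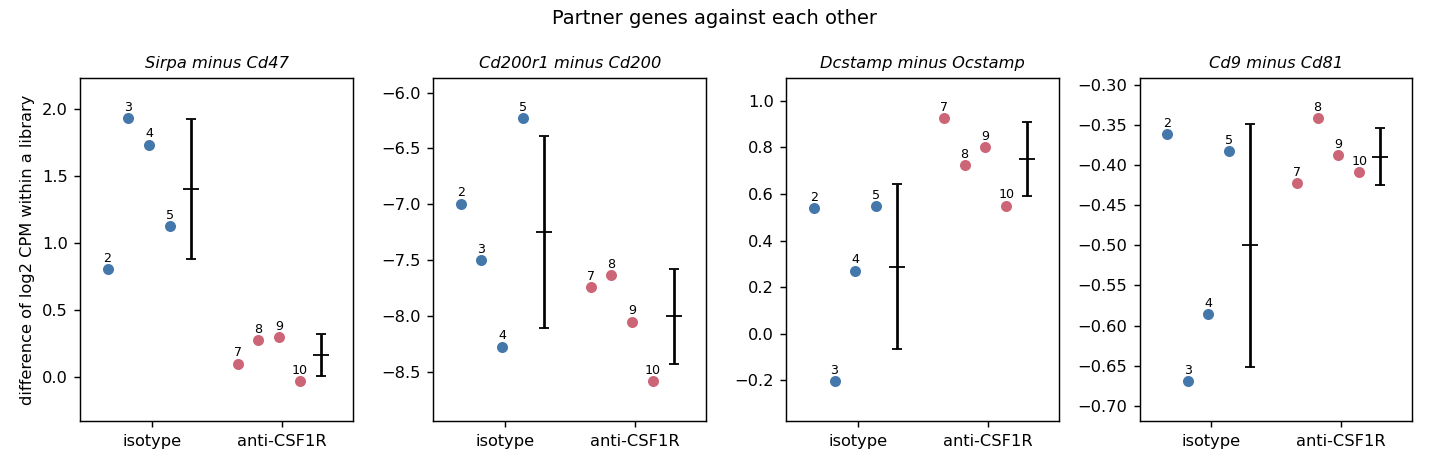
Difference of log2 CPM within a library for 4 pairs of members (points, with the library number; black, mean ± SD of 4 libraries); the vertical axes differ. Sirpa minus Cd47 lies at 0.81 to 1.94 with isotype and at -0.036 to 0.30 with anti-CSF1R, and the Cd200r1 and Cd9 pairs overlap between the groups.

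Cd200r1, an inhibitory receptor of myeloid cells and mast cells, was the scarcest member. Its CPM was 1.76, 0.878, 0.495 and 2.69 in isotype 2 to 5, from 30 to 190 counts, and 1.09, 1.00, 0.692 and 0.561 in anti-CSF1R 7 to 10, from 34 to 77 counts. The isotype values spread widely, with isotype 3 and 4 low and isotype 2 and 5 above all treated libraries. Across all libraries Cd200r1 did not pass (log2 fold change -0.80 ± 0.49, edgeR adjusted p = 0.312). Against isotype 2 and 5 alone it did (-1.40, edgeR adjusted p = 0.0380), and after the GC correction it did not (-1.07, edgeR adjusted p = 0.129). Over 18 alternatives its adjusted p lay between 0.0380 and 0.834. Its transcript had the lowest GC content of the 10, 41.9%. Reads may also be shared with its paralogs: Cd200r3 and Cd200r4 had group means of 0.278 to 0.388 CPM, and Cd200r2 of at most 0.0270 CPM, below the floor.

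Cd200, the ligand, is carried by endothelium, bone-forming cells, neurons and lymphocytes. It gave 228, 165, 163 and 204 CPM in isotype 2 to 5, and 240, 206, 192 and 228 CPM in the treated libraries 7 to 10. The groups overlapped and no difference was called (log2 fold change 0.19 ± 0.16, edgeR adjusted p = 0.412). The value was 0.0028 against isotype 2 and 5 alone and -0.095 after the GC correction. The 6 endothelial markers summed to 427 to 480 CPM with isotype and to 536 to 617 CPM with anti-CSF1R, without overlap, and 0 of the 6 passed (edgeR, all libraries). In 5 of the 6 every treated library lay above every isotype library. Only Emcn was called higher against isotype 2 and 5 alone (log2 0.34, edgeR adjusted p = 0.0269), and 0 after the GC correction. The part of these markers in the Cd200 values was not tested. Cd200r1 minus Cd200 was -7.25 ± 0.86 with isotype and -8.01 ± 0.43 with anti-CSF1R (difference -0.75, exact permutation p = 0.171, adjusted p = 0.229). The difference was -1.39 against isotype 2 and 5 alone (exact permutation p = 0.0667, the smallest possible there) and -0.93 after the GC correction (exact permutation p = 0.0857). It was -0.41 without isotype 5.

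Neither tetraspanin passed. Cd9, which with CD81 has been described as a brake on macrophage fusion and as part of osteoclast fusion sites, stood at 162, 256, 200 and 158 CPM in isotype 2 to 5. It stood at 164, 165, 162 and 167 CPM in anti-CSF1R 7 to 10, a far tighter range, with isotype 2 and 5 just below it. The log2 fold change of -0.24 ± 0.18 (edgeR adjusted p = 0.361) became 0.039 against isotype 2 and 5 alone and -0.36 after the GC correction (edgeR adjusted p = 0.813 and 0.287). Cd81, a widely expressed partner of CD9 and of integrins, stood at 208, 408, 300 and 207 CPM in isotype and at 220, 209, 212 and 221 CPM in anti-CSF1R libraries. Here too isotype 3 and 4 were high and the other 6 libraries lay close together. Its log2 fold change went from -0.38 ± 0.23 (edgeR adjusted p = 0.310) to 0.057 against isotype 2 and 5 alone and to -0.16 after the GC correction (edgeR adjusted p = 0.739 and 0.506). For both genes the sign thus turned when isotype 3 and 4 were left out and stayed negative, short of the threshold, after the GC correction. Cd9 minus Cd81 was -0.50 ± 0.15 and -0.39 ± 0.035 (difference 0.11, exact permutation p = 0.343, adjusted p = 0.343).

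Cd44, the hyaluronan and osteopontin receptor, gave 278, 178, 179 and 330 CPM in isotype 2 to 5, and 287, 241, 265 and 255 CPM in the treated libraries 7 to 10. All treated values lay between the low isotype pair, 3 and 4, and the highest, isotype 5. The log2 fold change was 0.12 ± 0.22 (edgeR adjusted p = 0.700), turning to -0.21 against isotype 2 and 5 alone and to -0.34 after the GC correction (edgeR adjusted p = 0.304 and 0.166). Adam8, a metalloprotease-disintegrin of granulocytes, macrophages and osteoclast precursors, stood at 7.09, 9.55, 8.45 and 8.79 CPM in isotype 2 to 5. In anti-CSF1R 7 to 10 it stood at 10.8, 10.8, 8.21 and 5.88 CPM, so that the highest and the lowest libraries were both treated ones. Its log2 fold change was 0.075 ± 0.22 (edgeR adjusted p = 0.814), and 0.17 against isotype 2 and 5 alone and 0.30 after the GC correction, neither called (edgeR adjusted p = 0.825 and 0.309). The 8 neutrophil markers summed to 123 to 331 CPM with isotype and 110 to 324 CPM with anti-CSF1R, lowest in anti-CSF1R 10 and, among isotype libraries, in isotype 5. Their part in the Adam8 values was not tested.

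**Figure D3:**
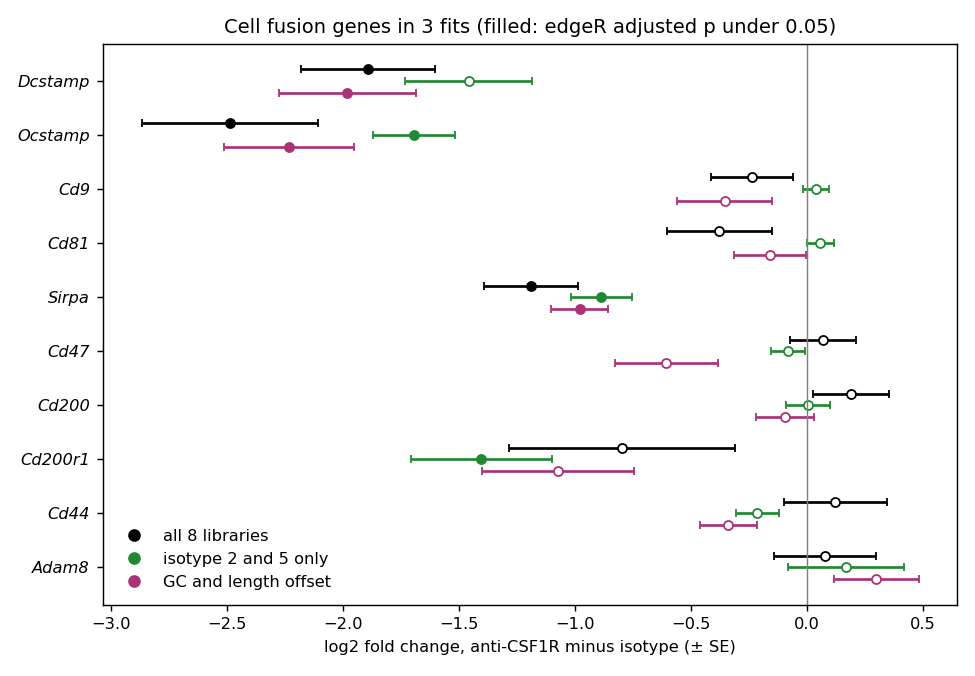
Log2 fold change ± SE of the 10 genes (anti-CSF1R minus isotype) in 3 edgeR fits: all 8 libraries, isotype 2 and 5 alone against the 4 anti-CSF1R libraries, and all libraries after the GC correction; filled points have an adjusted p under 0.05. Ocstamp and Sirpa are filled in all 3 fits, Dcstamp in 2 and Cd200r1 in 1.

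The calls rested on the libraries used. Dcstamp, Ocstamp and Sirpa lost theirs when any 1 of anti-CSF1R 7, 8, 9 or 10 or isotype 4 was left out, and Dcstamp also without isotype 3. All 3 were lost with the skeletal muscle score as a covariate (log2 -1.79, -2.11 and -1.10, edgeR adjusted p = 0.179, 0.179 and 0.240). Without anti-CSF1R 7 or 8 edgeR called 0 genes of the whole table (1903 and 1597 had an unadjusted p under 0.05), so every call named here was lost there. Over the fits without 1 library the log2 fold change stayed between -2.06 and -1.72 for Dcstamp, -2.71 and -2.11 for Ocstamp, and -1.34 and -1.04 for Sirpa. The adjusted p of these genes over the 18 alternatives ran from 1.08e-07 to 0.179, from 1.36e-08 to 0.179 and from 1.35e-05 to 0.240 with edgeR, DESeq2 or limma. Against isotype 2 and 5 alone, 2.38% of all genes tested were called lower, and after the GC correction 2.16%. Called higher were 0.679% and 0.493%. In each of those fits 0 members were higher and 3 lower: Ocstamp and Sirpa in both, with Cd200r1 in the former and Dcstamp in the latter.

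Levels of different genes were compared per kilobase of the longest annotated transcript. On that scale of CPM per kb, isotype means ran from 174.5 for Cd81 and 158 for Cd9, through 80.9 for Cd200, 42.9 for Cd44, 36.0 for Sirpa, 20.5 for Dcstamp, 10.2 for Cd47 and 9.84 for Ocstamp, to 2.31 for Adam8 and 0.525 for Cd200r1. Cd81 and Cd9, Cd44 and Sirpa, and Cd47 and Ocstamp overlapped between libraries, and the other neighbours in this order did not. With anti-CSF1R, Sirpa stood at 15.8 and Dcstamp at 5.51 CPM per kb. Dcstamp was then below Cd47 (10.7) in every treated library, whereas it was above Cd47 in every isotype library. Ocstamp, at 1.75, overlapped Adam8, at 2.43. A longest transcript need not be the isoform made in bone, and the order carries that limit.

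**Figure D4:**
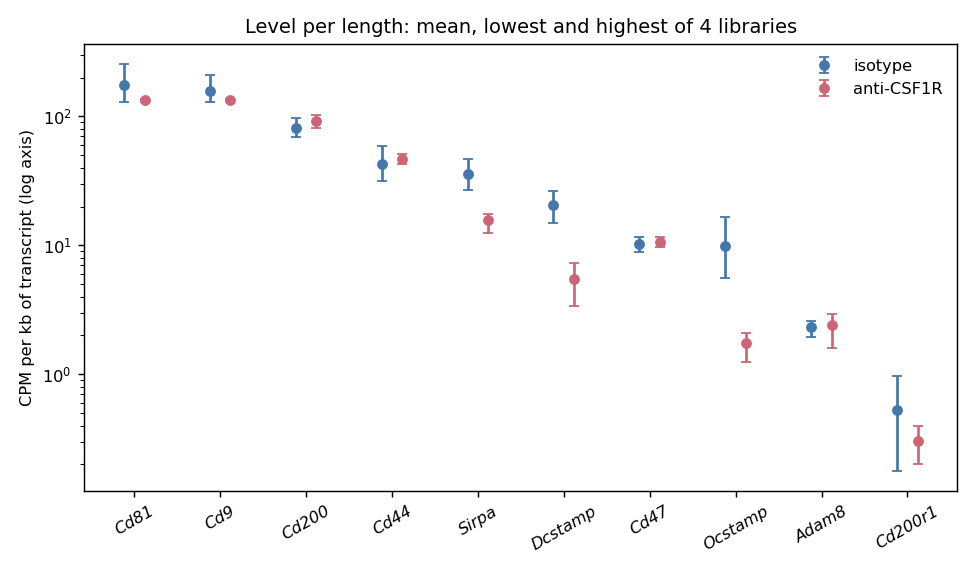
CPM per kb of the longest annotated transcript on a log axis, for the 10 genes in order of the isotype mean; points are means and bars run from the lowest to the highest of 4 libraries. Sirpa, Dcstamp and Ocstamp are the genes whose bars do not overlap between the groups.

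Other genes linked to fusion of osteoclasts and macrophages fell in part. Of 32 listed genes 31 were tested, 5 fell and 0 rose (edgeR, adjusted over all genes), with a median log2 fold change of -0.23. Siglec15, a sialic acid-binding receptor of fusing osteoclasts, had 21.5 ± 2.38 CPM in isotype and 6.94 ± 1.38 CPM in treated libraries (log2 -1.63 ± 0.19, edgeR adjusted p = 0.0156). Trem2, which signals through DAP12 in osteoclasts and macrophages, fell from 4.47 ± 1.84 to 0.869 ± 0.150 CPM (-2.36 ± 0.32, edgeR adjusted p = 0.0189). Tyrobp, the gene of DAP12 itself, fell from 86.6 ± 51.0 to 15.9 ± 4.03 CPM (edgeR adjusted p = 0.0328). So did Nfatc1, the transcription factor that switches on Dcstamp and Ocstamp in precursors, from 162 ± 14.0 to 85.9 ± 5.87 CPM (edgeR adjusted p = 0.0230). The fifth was Tnfrsf11a, which encodes the RANKL receptor RANK (22.8 ± 4.08 to 8.47 ± 2.26 CPM, edgeR adjusted p = 0.0336). All 5 were also called against isotype 2 and 5 alone, among 12 lower and 1 higher, and after the GC correction, among 11 lower and 0 higher. Siglec15, Nfatc1 and Tnfrsf11a are also among the osteoclast markers described above, so the counts of called genes in the lists overlap. Other genes, Atp6v0d2 among them, are on both lists as well. Atp6v0d2, a proton pump subunit needed for fusion, had a log2 fold change of -1.72 ± 0.33 and just missed the threshold (edgeR adjusted p = 0.0575). It is named here after its value was seen; it passed against isotype 2 and 5 alone and after the GC correction (edgeR adjusted p = 0.0165 and 0.00121).

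**Figure D5:**
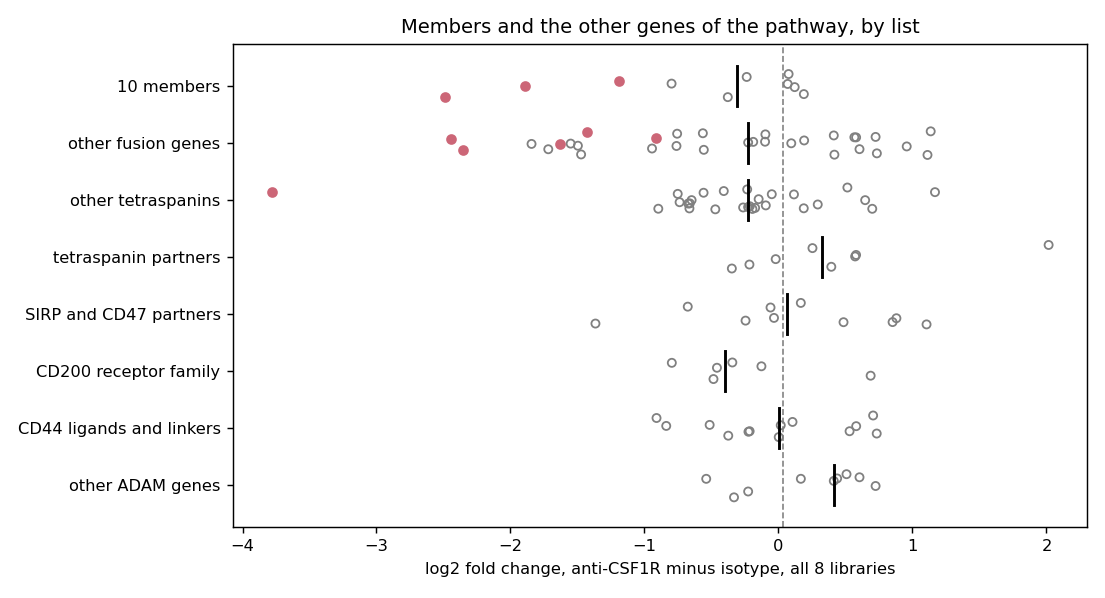
Log2 fold changes (anti-CSF1R minus isotype, all libraries) of the 10 genes and of the tested genes of 7 related lists; filled points have an edgeR adjusted p under 0.05, black bars are list medians and the dashed line is the median of all genes tested, 0.031. Filled points appear for 3 members, 5 other fusion genes and 1 other tetraspanin, all below 0.

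Among 27 other tetraspanins tested, 1 fell and 0 rose. It was Tspan10, which acts with the protease ADAM10 in Notch signalling of osteoclast precursors, which had 1.12 ± 0.586 CPM in isotype and 0.0786 ± 0.0213 CPM in treated libraries (log2 fold change -3.78 ± 0.49, edgeR adjusted p = 0.0159). Its treated level is close to the floor. The median of that list was -0.23, and 0.034 against isotype 2 and 5 alone. No gene passed on all libraries among the partners of tetraspanins (8 tested), of SIRPα and CD47 (10), of the CD200 receptor (6) and of CD44 (13), or among 9 other ADAM proteases (edgeR). Median log2 fold changes of these 5 lists were 0.32, 0.067, -0.40, 0.0018 and 0.41. Without isotype 3 and 4 these medians were 0.083, 0.030, -0.23, -0.13 and -0.046, so that of the ADAM list changed sign. By the mean over both groups, the most abundant tested members of these lists were Itgb1, Thbs2, Rasa1, Spp1 and Adam12, with log2 differences between the groups of 0.39, -0.25, 0.69, 0.73 and 0.60 (adjusted p in edgeR 0.350, 0.386, 0.322, 0.293 and 0.278). The same differences against isotype 2 and 5 alone were -0.056, -0.44, 0.046, 0.16 and 0.26, with none called. Rasa1 led its list in the treated libraries and in isotype 2 and 5 (52.6 and 58.2 CPM). In isotype 3 and 4 it was lower (18.4 and 13.1 CPM). By the isotype mean Inpp5d and Dok1 were therefore higher (37.0 and 36.6 CPM, against 35.6 CPM for Rasa1). Thbs2 belongs to the thrombospondins, which bind CD47, and Spp1 encodes osteopontin, a ligand of CD44. Ptpn6, the gene of the SIRPα phosphatase SHP-1, was singled out after its value was seen. It stood at 26.9 ± 9.23 and 10.4 ± 2.30 CPM without overlap between the groups, and missed the threshold (log2 -1.37 ± 0.27, edgeR adjusted p = 0.0642). The gene passed after the GC correction (-1.02, edgeR adjusted p = 0.0101) and not against isotype 2 and 5 alone (-0.93, edgeR adjusted p = 0.0523). In these 5 lists, 3 genes were called lower in both other fits, with every treated library below every isotype library, and are likewise named after their values were seen. Skap2, an adaptor in SIRPα signalling, had a log2 value of -0.68 on all libraries, Inpp5d, the gene of the lipid phosphatase SHIP-1, -0.80, and Hyal1, a hyaluronidase gene, -0.84 (edgeR adjusted p = 0.0800, 0.0968 and 0.0598). Against isotype 2 and 5 alone their adjusted p in edgeR was 0.0226, 0.0314 and 0.00686, and after the GC correction 0.0476, 0.0206 and 0.0145. Ptpn11, the gene of the related and ubiquitous SHP-2, stood at 115 ± 18.9 and 112 ± 1.13 CPM (edgeR adjusted p = 0.877).

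The genes with the most similar profiles were found by the mean absolute difference of log2 CPM over the 8 libraries, each gene centred on its own mean. For Dcstamp, among 13200 genes whose log2 CPM averaged at least 1, the nearest were Cyth4 (0.112), Chchd10 (0.127), Slc9b2 (0.129), Cd68 (0.132) and Pstpip1 (0.141). Slc9b2 encodes a sodium-proton exchanger of osteoclasts and Cd68 a lysosomal glycoprotein of macrophages and osteoclasts. For Ocstamp they were Tyrobp (0.0844), Acp5 (0.0962), Cd5 (0.113), Matk (0.137) and Mt3 (0.137). Acp5 encodes the osteoclast enzyme TRAP. The 5 nearest of each fell as well (edgeR adjusted p = 0.0164 to 0.0487 and 0.0156 to 0.0450), which follows from choosing them by the same libraries. For Cd200r1 the nearest of 14248 genes whose log2 CPM averaged at least 0 was Tfrc, the transferrin receptor, at 0.220. Mybpc1, Efcab1, Xpr1 and Cubn followed at 0.286 to 0.299, and none of the 5 passed (edgeR adjusted p = 0.371 to 0.572). The profile of the scarce Cd200r1 was thus matched less closely than those of Dcstamp and Ocstamp.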

How the data were processed

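The values are raw counts per gene symbol for 8 libraries, deposited by the authors as 1 table of 27133 genes. Libraries were made from 1 µg of RNA with a stranded mRNA kit and read as pairs of 101 bp, per the labels' protocols. STAR 2.7.10b and featureCounts 1.6.3, and the builds GRCm38 and GRCm39 with no role for either, are named in the submitters' processing notes; the sources used here give neither the annotation nor the strand setting. Between 82.8% and 84.7% of counts from 1 to 10 were even, as when both mates are counted, so counting noise exceeds what the totals imply. Pairs of libraries within a group differed by at least 8.44 times the squared difference of counting noise (median over genes), so none was a copy.

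Genes kept by filterByExpr (17028) were fitted together with edgeR 4.0.16 in R 4.3.3 (TMM, robust quasi-likelihood F-test, Benjamini-Hochberg over all genes, threshold 0.05), after a test on simulated data. Fold changes are log2, anti-CSF1R minus isotype. Within-library differences use log2 CPM with a prior count of 2 and an exact two-sided permutation test. GC content and length come from the longest GENCODE M21 transcript (GRCm38) of a symbol, present for 94.0% of tested genes; the GC correction is an offset per library from natural splines with 5 degrees of freedom each. Alternatives also included DESeq2 1.42.0, limma-voom (limma 3.58.1), library size alone, RLE factors, 2 other filters on low counts, halved counts, a skeletal muscle covariate and leaving out each library. Members and lists were chosen with earlier results of these data known. By rule, named genes are the 10 members, Csf1r, up to 4 called genes per pathway list (smallest p) or its most abundant gene, and the 5 nearest profiles of Dcstamp, Ocstamp and Cd200r1. Named outside that rule, after their values were seen, are Tnfrsf11a (completing a count of 5), Atp6v0d2, Ptpn6, Ptpn11, Skap2, Inpp5d, Hyal1 and Dok1. So are the markers Mertk, Cd163, Car2, Mmp9, Ctsk and Emcn, the paralogs of Sirpa and Cd200r1, and the fusion genes of muscle and placenta. Replicate numbers are not shared between the groups.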

Additional observations from a re-analysis of the deposited data

How the results depend on the processing

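No paired analysis was possible because the replicate numbers of the groups are not shared. Of 180 member values under an alternative, 145 kept their direction and side of the threshold, 20 lost a call, 1 gained one and 14 changed sign, each of the 14 in a gene that was not called. With isotype 2 and 5 only Cd9 was 0.039, Cd81 0.057, Cd47 -0.082 and Cd44 -0.21 (log2). After the GC correction Cd47 was -0.61, Cd200 -0.095 and Cd44 -0.34, and with the muscle covariate Cd44 was -0.047. Cd9 minus Cd81 turned to -0.017 with isotype 2 and 5 only and to -0.16 after the GC correction. Without 1 library Cd47 ran from -0.0030 to 0.11, Cd44 from -0.0066 to 0.31 (-0.00031 without isotype 3) and Adam8 from -0.031 to 0.23 (-0.031 without isotype 2, -0.029 without anti-CSF1R 7 or 8).

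All genes called lower numbered 140, and 90 with library size alone, 629 with DESeq2, 417 with isotype 2 and 5 only, 368 after the GC correction and 0 with the muscle covariate. Genes called higher numbered 4, and 8, 148, 119, 84 and 0 in that order, with 8 when counts were halved. Without 1 library edgeR called 0 to 245 lower, 0 to 41 higher and 0 to 3 members lower. The muscle covariate left 0 members called lower (3 at an unadjusted p under 0.05). It also takes a degree of freedom, and the cause of the lost calls was not tested. Library size alone moved the median of all genes from 0.031 to 0.19 and left the signs of the 10 members as they were. Counts of 30 to 190 limit Cd200r1.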

Other observations

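Fusion proteins of other cell types were scarce. Mymk, the gene of the myoblast fusion protein myomaker, had no count in any of the 8 libraries, which allows up to 0.0396 to 0.0573 CPM per library, for counting error only. Mymx, the gene of its partner myomerger, had 0.0440 ± 0.0493 CPM in isotype and 0.214 ± 0.127 CPM in treated libraries and was too low to be tested. Of the retroviral envelope proteins that fuse the placental syncytiotrophoblast, Synb had no count in any library. Syna stood at 1.05 ± 0.246 and 1.12 ± 0.222 CPM (log2 fold change 0.095 ± 0.25, edgeR adjusted p = 0.794). Ly6e, the gene of the receptor of syncytin-A, stood at 117 ± 37.2 and 78.9 ± 8.01 CPM (log2 fold change -0.56 ± 0.23, edgeR adjusted p = 0.278), and at -0.24 with isotype 2 and 5 only.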
